A study of Mus musculus with 4 samples.

Results

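The genes described here read out or regulate the transcriptional co-activator YAP1, and each was taken by its symbol from the deposited tables. They are the YAP1 target genes Cyr61, Ctgf, Ankrd1 and Axl, the angiomotins Amot, Amotl1 and Amotl2, and the upstream regulators Ajuba, Nf2 and Frmd6. The 10 genes are part of 24063 symbols in the tables, all 10 passed the filter on low counts, and 16208 genes were tested in all. RNA was sequenced from CD31-selected lung endothelial cells (ECs) of C57BL6 mice (C57BL6J in the study's methods), 8 weeks old and labelled male, in 2 groups. In the post-PNX group the left lung had been removed by unilateral pneumonectomy (PNX) 7 days earlier, and in the sham group the mice had undergone thoracotomy without PNX. The study's methods describe anesthesia and a postoperative analgesic for the surgery without separating the groups. There were 2 libraries per group, each made from a pool of cells from 2 mice, so the values of single animals cannot be told apart. Selection by CD31 on magnetic columns does not separate arterial, capillary and venous ECs. The libraries are called sham 1, sham 2, post-PNX 1 and post-PNX 2 here.

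The Hippo pathway is a kinase cascade that keeps YAP1 and its relative TAZ (Wwtr1) in the cytoplasm. When the cascade is quiet, YAP1 enters the nucleus, binds TEAD transcription factors and switches on genes such as Cyr61 and Ctgf, which for that reason serve as a readout of YAP1 in many tissues. Angiomotins hold YAP1 at cell junctions and on actin filaments, merlin (Nf2) brings the LATS kinases to the membrane, and in blood vessels YAP1 responds to stretch, flow and the stiffness of the matrix. Amotl2 is both an angiomotin and a known YAP1 target.

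Counts on the transcript with the most reads per gene came to between 41367438 and 50952879 per library, and 3 counts, the smallest level that these depths can show, lay between 0.0589 and 0.0725 CPM. For libraries with the same label the chi-square averaged over genes was 1.77 (sham) and 1.53 (post-PNX), where counting noise alone gives about 1, against 119 and 134 for pairs of the same number across the groups. Nothing in the labels says that the libraries of a group were made on separate days or by separate hands, and p-values measure only the spread between these libraries. Against the label, none of the 44 chromosome Y genes in the tables had a count in any library, while Xist, the RNA that silences an X chromosome in female cells, had 31872 to 33792 normalized counts. This held for all 4 libraries, so no result could be given without them. Markers of other cell types were read in the CD31-selected fraction, and their levels differed between the groups in both directions. No marker of any of the 7 lists was at 0 in all libraries. Falls and rises of markers were counted at an edgeR adjusted p under 0.01. Of all genes tested, 27.8% fell and 29.3% rose by that threshold. Of 12 endothelial markers 10 fell and 1 rose, and their summed level went from between 551910 and 557600 normalized counts in sham to between 462220 and 463890 after PNX. Cdh5 had the most counts (log2 fold change -0.22) and Eng the largest change (-0.54), while Pecam1, which encodes CD31, had a log2 fold change of -0.01. All 11 alveolar epithelial markers fell, from 362490 to 363950 down to 237790 to 238380 summed counts, with Sftpc the most abundant (log2 fold change -0.62), with the largest change in Rtkn2 (-0.99). Of 10 fibroblast markers 8 rose and 1 fell, and their sum went from 82427 to 83040 up to 280800 to 283830, with Col3a1 the most abundant (2.27) and Lum the most changed (4.26). All 7 mesothelial markers rose, from 14498 to 14627 up to 27095 to 27622, with Msln (1.97) and Wt1 (2.68). Of 10 smooth muscle and pericyte markers 9 rose, from 25090 to 25371 up to 33852 to 34041, with Pdgfrb (0.27) and Rgs5 (2.09). Of 7 macrophage markers 6 rose and 1 fell, from 25284 to 25619 up to 51077 to 51237, with Mrc1 (0.70) and C1qb (2.98). Of 6 pan-leukocyte markers 4 rose and 1 fell, from 55849 to 55934 up to 60434 to 61255, with Lcp1 (0.19) and Cd53 (0.31), while Ptprc had a log2 fold change of 0.00. The part of these cells in the results for the 10 genes was not tested.

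The start sites of the genes are shown first, because TEAD factors, through which YAP1 acts, recognize GGAATG. RefSeq promoters of mouse build GRCm38.p6 (the build mm10 of the tables), each 250 bases before to 50 after a start site, were found for 9 of the 10 genes in 10 windows, and none was found for Ctgf. Gene positions given with the results are the extents RefSeq gives over all transcripts of a gene, and some start sites of the promoter table lie inside them. This held for Amotl2 (713 bases inside), Axl (191), Frmd6 (58), Amot (18327), Amotl1 (47974) and the second window of Nf2 (16409), so the Amotl2 match lies before its tabulated start site but within the extent of the gene. The letters GGAATG, searched on both strands, stood in 5 of the 10 windows, against 14.7% of 32851 promoters of that length. Ankrd1 and Ajuba had 2 matches each, which 1.36% of all promoters have. The windows of Amot, Amotl1, Nf2 and Frmd6 held no match. The AP-1 motif TGANTCA, on both strands, was in none of the 10 windows, so that it overlapped no TEAD match, and stood in 7.81% of all promoters. A match of letters is a description and no sign of a bound factor. The matches are printed with 12 bases on either side, 5′ to 3′ along the gene, with the match in capitals, which reads CATTCC where it lies on the other strand.
Cyr61, chr3:145650071-145650100, minus strand, 103 bases before the start site, in no annotated exon: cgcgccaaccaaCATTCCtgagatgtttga
Amotl2, chr9:102717727-102717756, plus strand, 65 bases before the start site, within a 5′ UTR exon of a GENCODE transcript of Amotl2: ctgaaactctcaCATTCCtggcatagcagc
Ankrd1, chr19:36120037-36120066, minus strand, 210 bases before the start site, within a 5′ UTR exon of a GENCODE transcript of Ankrd1: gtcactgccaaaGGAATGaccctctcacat
Ankrd1, chr19:36119950-36119979, minus strand, 123 bases before the start site, within a 5′ UTR exon of a GENCODE transcript of Ankrd1: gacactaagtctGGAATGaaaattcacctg
Axl, chr7:25788949-25788978, minus strand, 233 bases before the start site, in no annotated exon: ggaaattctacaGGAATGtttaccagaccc
Ajuba, chr14:54577830-54577859, minus strand, 186 bases before the start site, in no annotated exon: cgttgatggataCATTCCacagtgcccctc
Ajuba, chr14:54577808-54577837, minus strand, 164 bases before the start site, in no annotated exon: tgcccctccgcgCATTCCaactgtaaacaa
For Cyr61, the gene with the highest level of the 10, all 250 bases before the start site (chr3:145649986-145650235, minus strand) are printed, so that the place of its match can be seen.
Cyr61 upstream: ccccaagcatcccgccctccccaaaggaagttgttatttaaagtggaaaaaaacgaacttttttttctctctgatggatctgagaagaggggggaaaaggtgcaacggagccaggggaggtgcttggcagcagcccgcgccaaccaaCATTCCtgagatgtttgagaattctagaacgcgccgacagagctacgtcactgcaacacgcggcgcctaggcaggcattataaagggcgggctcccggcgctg

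To see how the YAP1 readout genes and their regulators stood in CD31-selected lung cells after PNX, the 2 groups were compared in a fit over all 16208 genes. The largest difference on the log2 scale was a fall of the angiomotin Amotl2 by 39.4%, followed by a rise of Ankrd1 by 49.8% and a fall of Frmd6 by 24.2%. Cyr61 fell by 12.6%, Amotl1 fell by 14.8% and Nf2 fell by 7.17%, and Axl rose by 5.90%, but scaling to 12 endothelial marker genes in place of all genes turned the direction of Cyr61, Amotl1 and Nf2. Ctgf, Amot and Ajuba did not pass the test. A gene was called when its adjusted p was under 0.01 in the quasi-likelihood test of edgeR, adjusted over all genes by Benjamini-Hochberg. Of the 10 genes 5 were called lower and 2 higher, against 57.1% of all genes called in either direction, 27.8% lower and 29.3% higher. None of the 10 passed the study's further threshold of a log2 fold change beyond 1, against 7.56% of all genes (5.90% higher and 1.66% lower). The largest was that of Amotl2 (-0.72), so a looser p threshold could not change this, and none passed with DESeq2 either. In 8 of the 10 genes the libraries of the groups did not overlap, against 81.2% of all genes. The 10 genes had a median log2 fold change of -0.10, and all genes one of 0.00. In absolute size the change of Amotl2 was exceeded by 13.2% of all genes tested, that of Ankrd1 by 17.9% and that of Ctgf by 94.5%.

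**Figure D1:**
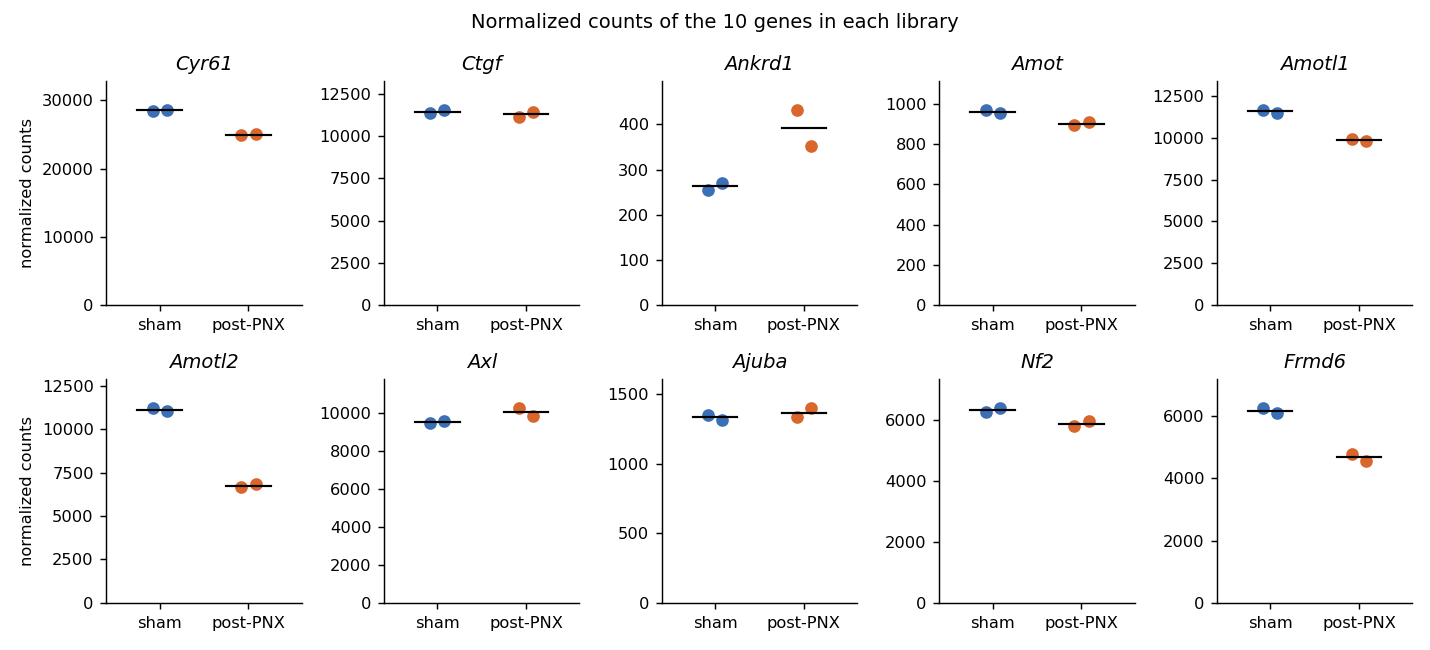
Normalized counts (y axis from 0, a scale for each gene) of the 10 genes in the 2 sham and 2 post-PNX libraries (points), with the group mean as a bar. Amotl2 and Frmd6 lie lower in both post-PNX libraries, Ankrd1 lies higher with the widest spread, and the groups overlap in Ctgf and Ajuba.

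The levels of the genes were compared per transcript length, as the deposited FPKM. They are levels of the CD31-selected fraction, in which other cell types were read too. In sham the epithelial marker Sftpc stood at 2893 FPKM and Pecam1 at 374. In the sham libraries the order was Cyr61 (191 ± 0.314 FPKM, SD, n = 2), Ctgf (64.8 ± 0.615), Amotl2 (36.1 ± 0.395) and Axl (25.4 ± 0.205). Next came Nf2 (18.02 ± 0.246), Frmd6 (17.98 ± 0.353) and Amotl1 (17.6 ± 0.148), and last Ajuba (5.18 ± 0.0955), Ankrd1 (2.03 ± 0.0861) and Amot (1.87 ± 0.0179). Nf2 and Frmd6 could not be ordered, since their libraries overlapped, while all other neighbours in the order were apart in both libraries, Frmd6 (17.73 and 18.23 FPKM) and Amotl1 (17.45 and 17.66) by little. Cyr61 lay above 98.9% of the genes tested and Amot above 30.1%. After PNX the level of Axl (27.57 and 26.43 FPKM) was above that of Amotl2 (21.99 ± 0.393), and that of Amotl1 (15.1 ± 0.163) above that of Frmd6 (13.7 ± 0.461). The other genes kept their place.

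**Figure D2:**
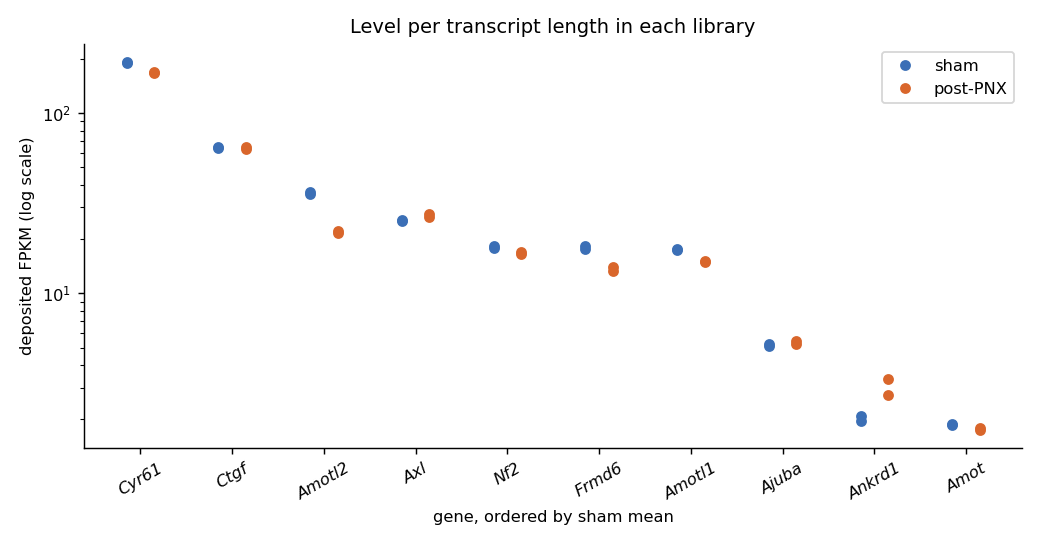
Deposited FPKM (log axis) of the 10 genes in each sham and post-PNX library (points), ordered by the sham mean. Levels run from 191 FPKM for Cyr61 in sham to 1.77 FPKM for Amot after PNX, and Amotl2 passes from above to below Axl.

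Among the secreted targets, Cyr61 and Ctgf encode the matricellular proteins CCN1 and CCN2, which bind integrins and are released into the matrix. Cyr61, on chromosome 3 from 145646971 to 145649985, had 28493 and 28545 normalized counts in sham and 24853 and 25001 after PNX. The post-PNX values were the lower ones, and the distance was many times the spread within a group. The log2 fold change was -0.19 (standard error 0.018, edgeR adjusted p = 9.85e-15), and with scaling to the endothelial markers it was 0.07 (adjusted p = 0.00221), so its direction depends on the scaling. Ctgf, on chromosome 10 from 24595442 to 24598683, had 11386 and 11534 normalized counts in sham and 11164 and 11426 after PNX. These values overlapped, with a log2 fold change of -0.02 and a 95% interval from -0.06 to 0.02 (edgeR adjusted p = 0.387), and on the endothelial scale it was 0.24 (adjusted p = 1.5e-09). An exon of Ctgf overlaps Gm15270 on the opposite strand in the annotation, and whether the counting used strand is not given in the sources used here. Of the 6 CCN genes, Cyr61 and Ctgf held 69.2% to 69.4% and 23.4% to 23.6% of the summed FPKM in sham, and 64.7% to 65.3% and 24.8% to 25% after PNX. The remaining CCN genes were Wisp1 (CCN4), which rose from 178 ± 2.13 to 1112 ± 87.6 normalized counts (SD, n = 2, log2 fold change 2.64), and Wisp2 (CCN5), which rose with a log2 fold change of 0.26. Nov and Wisp3 were not called, with log2 fold changes of 0.21 and 0.48. Wisp1 was thus the single CCN gene beyond 2-fold, from a level of 0.481 FPKM in sham, and it rose in the libraries in which fibroblast and mesothelial markers rose, whose part was not tested.

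Ankrd1 encodes a small ankyrin repeat protein of nucleus and sarcomere that is induced by strain in muscle and is a widely used YAP1 target. Ankrd1, on chromosome 19 from 36111965 to 36119844, was read with 282 and 266 counts in sham and 439 and 316 after PNX, or 255, 271, 431 and 352 normalized counts. Both post-PNX libraries were above both sham libraries, but they differed from each other by more than the sham libraries did. The log2 fold change was 0.58 (standard error 0.091, edgeR adjusted p = 1.1e-07), and it lay between 0.42 and 0.71 in the fits that left out 1 library each. This was the largest rise among the 10 genes and also their widest interval, from 0.40 to 0.77. Among the other muscle ankyrin repeat genes, Ankrd23 was not called with a log2 fold change of -0.25, and Ankrd2, with 6.63 and 9.99 normalized counts, did not pass the filter. Markers of fibroblasts, mesothelium and smooth muscle rose in the same libraries, and their part in the change of Ankrd1 was not tested.

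Axl is a receptor tyrosine kinase that is activated by Gas6 and takes part in the survival of ECs and in the uptake of dying cells. Axl, on chromosome 7 from 25756500 to 25788924, had 9441 and 9545 normalized counts in sham and 10243 and 9847 after PNX. Both post-PNX libraries were higher, post-PNX 1 by more than post-PNX 2. The log2 fold change was 0.08 (standard error 0.022, edgeR adjusted p = 0.00098). The call was lost without sham 1 (adjusted p = 0.0126), without post-PNX 1 (log2 fold change 0.05, adjusted p = 0.0986) and with DESeq2 (adjusted p = 0.0246). Of the same receptor family Mertk fell (log2 fold change -0.33), although on the endothelial scale it was not called at -0.07 (edgeR adjusted p = 0.026). Tyro3 was not called at 0.27, but passed with a replicate block (edgeR adjusted p = 0.00964), without the filter (0.00895), with summed transcripts (0.00388) and on the endothelial scale (log2 fold change 0.53, 2.69e-05). Of the ligands, Gas6 rose from 8642 ± 90.1 to 10227 ± 139 normalized counts (SD, n = 2, log2 fold change 0.24), and Pros1 was not called at 0.04, but was at 0.30 on the endothelial scale (edgeR adjusted p = 5.52e-11). Mertk is also among the macrophage markers, and was the 1 of those 7 that fell.

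Angiomotins bind YAP1 and link tight junctions and VE-cadherin to actin. Amotl2, on chromosome 9 from 102717091 to 102733418, had 11211 and 11033 normalized counts in sham and 6650 and 6837 after PNX. The groups were far apart, at 11122 ± 126 and 6743 ± 132 (SD, n = 2). Its log2 fold change of -0.72 (standard error 0.023, edgeR adjusted p = 7.0e-37) was the largest of the 10 genes, and it stayed between -0.74 and -0.46 under all 12 alternatives, the smallest size being that on the endothelial scale. In bulk RNA, fewer cells that carry a transcript and less of it per cell cannot be told apart. Alveolar epithelial markers fell in the same libraries, and their part in the fall of Amotl2 was not tested. Amotl1, on chromosome 9 from 14541966 to 14662974, had 11638 and 11495 normalized counts in sham and 9922 and 9795 after PNX. It fell with a log2 fold change of -0.23 (standard error 0.021, edgeR adjusted p = 9.82e-15), which was 0.03 on the endothelial scale (adjusted p = 0.213). Amot, on chromosome X from 145446424 to 145505966, was the least abundant, with 967 and 953 normalized counts in sham and 891 and 910 after PNX. Although both post-PNX libraries were lower, Amot was not called (log2 fold change -0.09, 95% interval from -0.20 to 0.01, edgeR adjusted p = 0.113), and on the endothelial scale it was 0.17 (adjusted p = 0.00501). The summed level of the 3 angiomotins went from 55.9 and 55.1 FPKM in sham to 38.6 and 39.0 after PNX. Amotl2 made up 65.0% and 64.9% of that sum in sham and 56.2% and 57.1% after PNX, while Amotl1 went from 31.6% and 31.7% to 39.3% and 38.3%.

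**Figure D3:**
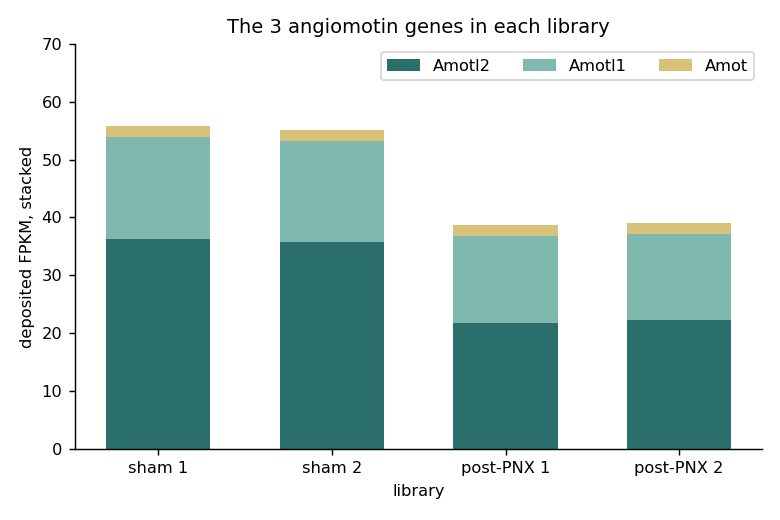
Deposited FPKM of Amotl2, Amotl1 and Amot, stacked (y axis from 0), in each of the 4 libraries. The stack is about 55 FPKM in both sham libraries and about 39 in both post-PNX libraries, and most of the distance is in the Amotl2 segment.

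Amot is listed with 2 transcripts, which share reads. The long one of 6958 bases, used above, had 1067 and 935 counts in sham and 907 and 817 after PNX. The short one of 2937 bases (NM_001290274) had 367 and 300 in sham and 276 and 215 after PNX, a log2 ratio of -0.32 against -0.09 for the long one, without a test because reads are counted for both. Nf2 is listed with 5 transcripts and Axl with 3. The ratios of the 2 short Nf2 transcripts were -0.17 and -0.16 against -0.11 for the 3 long ones, and those of the 3 Axl transcripts were all 0.08. The other 7 genes have 1 transcript each in the tables.

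The regulators upstream of YAP1 are junction and membrane proteins. Frmd6 encodes a FERM protein related to Expanded of the fly. Frmd6, on chromosome 12 from 70825456 to 70902234, had 6259 and 6085 normalized counts in sham and 4783 and 4572 after PNX. All post-PNX values were below the sham values by far more than the spread, with a log2 fold change of -0.40 (standard error 0.027, edgeR adjusted p = 1.3e-20). It remained called on the endothelial scale, at -0.14 (adjusted p = 0.000195). All 11 alveolar epithelial markers fell in the same libraries, and the named ones, Sftpc (-0.36) and Rtkn2 (-0.73), were also lower on that scale. Their part in the fall of Frmd6 was not tested. Nf2 encodes merlin, a tumour suppressor that ties the membrane to the Hippo kinases. Nf2, on chromosome 11 from 4757639 to 4849544, had 6274 and 6393 normalized counts in sham and 5798 and 5962 after PNX, both lower. The log2 fold change was -0.11 (standard error 0.025, edgeR adjusted p = 0.000163), but 0.15 on the endothelial scale (adjusted p = 1.3e-05), and without post-PNX 1 it was -0.09 (adjusted p = 0.0209). Of the related ERM proteins, which link membrane and actin, Ezr and Msn rose (log2 fold changes 0.26 and 0.05) and Rdx fell (-0.12, but 0.14 on the endothelial scale). The call of Msn was lost without sham 2 (log2 fold change 0.04), without post-PNX 2 (0.05), with summed transcripts (edgeR adjusted p = 0.0183) and with DESeq2 (adjusted p = 0.0219). Ajuba encodes a LIM scaffold that holds LATS kinases at junctions under tension. Ajuba, on chromosome 14 from 54567469 to 54577661, had 1353 and 1317 normalized counts in sham and 1335 and 1402 after PNX. The groups overlapped (log2 fold change 0.03, 95% interval from -0.06 to 0.12, edgeR adjusted p = 0.523), and on the endothelial scale the value was 0.29 (adjusted p = 3.9e-06). Of its relatives, Limd1 rose with a log2 fold change of 0.09 and Wtip was not called at 0.05. The call of Limd1 was lost without sham 1 (adjusted p = 0.0535), without post-PNX 1 (0.242), with summed transcripts (0.0258) and with DESeq2 (0.0894).

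The scaling set the direction of several of these genes. Taking the 12 endothelial markers as constant raised the median log2 fold change of all genes to 0.26. Relative to that median, Amotl2, Frmd6, Amotl1, Cyr61, Nf2, Amot and Ctgf lay below and Ankrd1, Axl and Ajuba above, in the order that TMM gave. Of the 10 genes 7 were then called higher and 2, Amotl2 and Frmd6, lower, and 67.2% of all genes were called in either direction (9526 higher and 1367 lower, against 4745 and 4513 with TMM). Amotl2 and Frmd6 were the only genes of the 10 called lower under both scalings, and Ankrd1 and Axl the only ones called higher under both. The endothelial scaling moved log2 fold changes up by about 0.26. A gene higher with TMM was thus bound to stay higher, and the calls of Ankrd1 and Axl under both scalings are no further support. Amotl2 (-0.72) and Frmd6 (-0.40) lay further below 0 with TMM than that shift, so both were bound to stay below 0. Their calls under both scalings add only that the falls were larger than the shift.

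**Figure D4:**
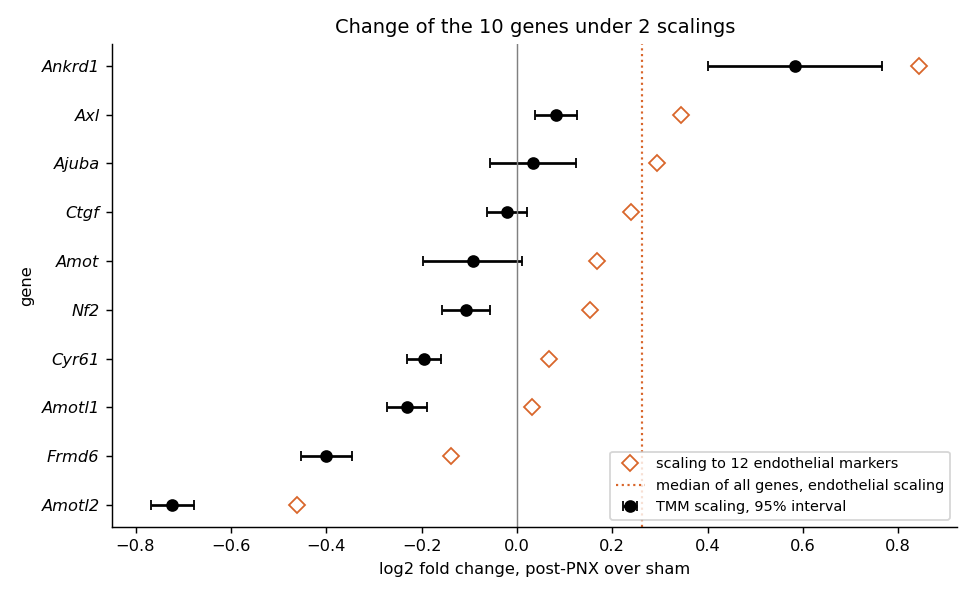
Log2 fold change (x axis) of the 10 genes, with TMM scaling (black points with 95% intervals) and with scaling to 12 endothelial markers (open diamonds). The dotted line is the median of all genes on the endothelial scale, 0.26; Amotl2 and Frmd6 lie below 0 on both scales, and Cyr61, Amotl1, Nf2, Amot and Ctgf change sign.

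The genes of the wider YAP1 program moved both ways. A signature of 22 YAP/TAZ target genes holds Cyr61, Ctgf, Ankrd1, Amotl2 and Axl besides 17 others. Of these 17, 8 rose and 5 fell (76.5% called, against 57.1% of all genes), with a median log2 fold change of 0.07. Ccdc80, a matrix protein, rose from 1536 ± 70.4 to 6835 ± 28.3 normalized counts (SD, n = 2, log2 fold change 2.16), and Fjx1 from 94.96 ± 11.3 to 211 ± 4.14 (1.16). Igfbp3, which binds insulin-like growth factors, fell from 6003 ± 14.6 to 1830 ± 27.4 (SD, n = 2, log2 fold change -1.71). Tgfb2 rose (0.58) and Crim1 fell (-0.43), both chosen after their values were seen. Over all 22 genes, 10 rose, 7 fell and 5 were not called, with a median of 0.06, against 29.3% of all genes higher and 27.8% lower. On the endothelial scale 16 were called higher and 4 lower, against 58.8% and 8.43% of all genes. Ccdc80 rose in the libraries in which fibroblast markers rose.

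**Figure D5:**
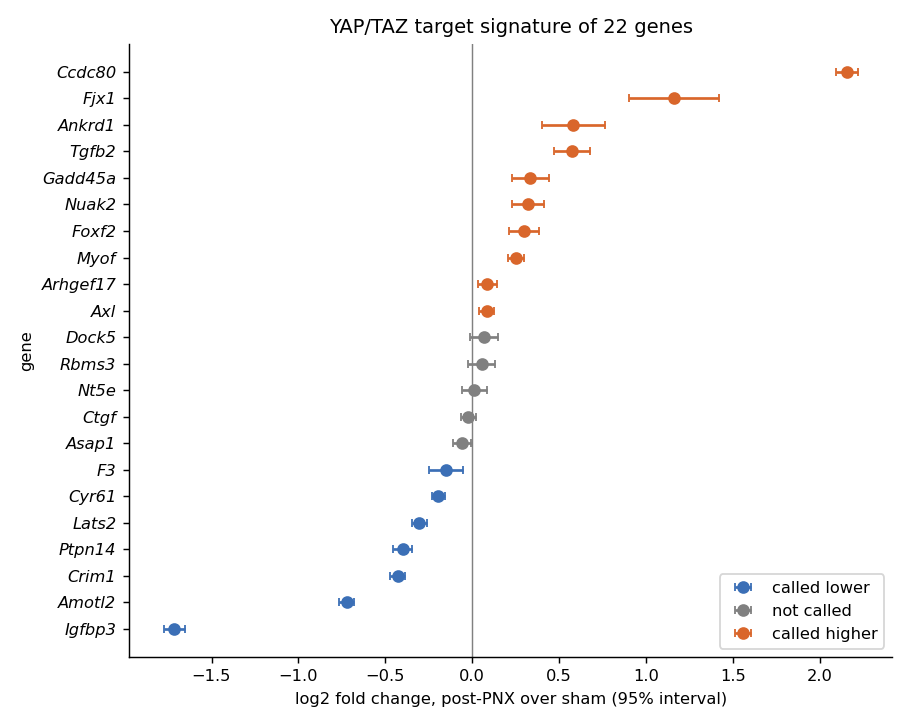
Log2 fold change with 95% interval (x axis, TMM scaling) of the 22 genes of the YAP/TAZ target signature, colored by the call. The genes run from Igfbp3 at -1.71 to Ccdc80 at 2.16, with 10 called higher, 7 called lower and 5 not called. On the endothelial scale 16 were higher and 4 lower, against 58.8% and 8.43% of all genes.

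Of the Hippo kinases, YAP1, TAZ and the TEAD factors, 12 of 17 fell and 4 rose (27.8% of all genes fell and 29.3% rose), with a median of -0.19, but on the endothelial scale 1 was lower and 6 higher (8.43% and 58.8% of all genes). Yap1 fell (log2 fold change -0.26, with adjusted p = 0.994 on the endothelial scale), whereas Wwtr1 rose (0.15). Tead1 and Tead4 fell (-0.24 and -0.17, with signs that turn on the endothelial scale, to 0.02 and 0.09), while Tead2 and Tead3 rose (0.28 in both). Tead4 was not called with DESeq2 (adjusted p = 0.0186) or without sham 1 (log2 fold change -0.13). The largest falls of the list were those of the kinases Taok2 (-0.33) and Lats2 (-0.30) and of Vgll4 (-0.30), a competitor of YAP1 for TEAD, of which Lats2 and Vgll4 were not called on the endothelial scale (adjusted p = 0.0903 and 0.472). Lats2 is also one of the 17 further signature genes, as is Ptpn14. Among 13 tested junction partners and turnover enzymes of the angiomotins, 11 fell and 1 rose, against 27.8% of all genes lower, with a median of -0.29. They include Inadl (-0.53), which encodes the junction scaffold Patj, Tjp1 (-0.47), which encodes ZO-1, and Mpp5 (-0.46), which encodes Pals1. On the endothelial scale 5 of the 13 were lower, these 3 among them, and 4 higher, against 8.43% and 58.8% of all genes. All 11 alveolar epithelial markers fell in the same libraries. Their part in the falls of this list and of the scaffolds named next was not tested. Of 8 upstream scaffolds of the Hippo kinases 5 fell and 2 rose, against the same 27.8% and 29.3% of all genes, with a median of -0.20, and on the endothelial scale 2 were lower and 4 higher, against 8.43% and 58.8%. Wwc1, which encodes the scaffold Kibra, had the largest change of that list (-0.79, and -0.53 on the endothelial scale), before Ptpn14 (-0.40) and Fat4 (-0.32, not called on the endothelial scale, adjusted p = 0.178). Neither call of a rise in that list was kept without sham 1 or without post-PNX 1.

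Cyr61 and Ctgf are also immediate early genes, which respond to cell isolation. Of 15 other immediate early genes 9 fell and 4 rose, against 27.8% and 29.3% of all genes, with a median of -0.11 and the largest changes in Ier3 (-0.64), Klf4 (-0.49) and Jun (-0.49), while 11 were higher and 3 lower on the endothelial scale, against 58.8% and 8.43% of all genes. Their summed level was between 517830 and 526610 normalized counts in sham and between 455790 and 465740 after PNX. Whether handling of the cells had a part in the values of Cyr61 and Ctgf was not tested.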

How the data were processed

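RNA of ECs was measured in 4 libraries, 2 sham and 2 post-PNX, made with a stranded mRNA kit and aligned to mm10; STAR is named in the submitters' processing notes, and the counter is not given in the sources used here. For each of 33068 RefSeq transcripts the authors deposited a whole-number read count without normalization, an FPKM value scaled to length and to the counts over all transcripts, and a TPM value, which was not used. Since transcripts of a gene share reads, the one with the highest total count in the 4 libraries stood for the gene.

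The count analysis used edgeR 4.0.16 in R 4.3.3, with filterByExpr, TMM (factors from 0.9985 to 1.003), the quasi-likelihood test without covariates and Benjamini-Hochberg adjustment, and called at an adjusted p under 0.01. A standard error is the log2 fold change divided by the square root of F. Normalized counts are scaled to the mean library size. The genes and lists were chosen with earlier results of these data known. Named were the 10 genes, their families, Yap1, Wwtr1 and Tead1 to Tead4, the 3 called genes with the largest change in each pathway list (mean of at least 100 normalized counts), and the most abundant and most changed marker of each cell type; 1 listed gene in each of 4 lists was not found under its symbol. Floors cover counting error only. Alternatives were other scalings and filters, DESeq2 1.42.0, a block for the replicate number, summed transcripts, glmTreat, a threshold of 0.05 and each library left out. On simulated counts of 16075 genes edgeR recovered 100 of 100 genes changed 2-fold and called 0 of 15875 unchanged ones. The changed genes had a mean of at least 100 counts, and the spread between libraries was taken from these data. Changes below 2-fold, such as those of all 10 genes, were not simulated, so their calls were not checked in this way.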

Additional observations from a re-analysis of the deposited data

How the results depend on the processing

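With TMM factors from 0.9985 to 1.003, DESeq2 size factors and library size alone could move the values only little, and agreement there was given beforehand. Of the 120 comparisons of a log2 fold change of the 10 genes with its value under an alternative, 110 kept direction and call. Scaling to the endothelial markers accounted for most of the others: it gave 7 genes higher and 2 lower, turned Cyr61 (0.0672), Ctgf (0.24), Amot (0.17), Amotl1 (0.0309) and Nf2 (0.15), and also Rdx (0.14), Cdh5 (0.0406), Pecam1 (0.25), Ptprc (0.26), Tead1 (0.0218) and Tead4 (0.0874). Of the signature it called 16 higher and 4 lower, and of its 17 other genes 3 lower, against 58.8% of all genes higher and 8.43% lower. It assumes that the markers did not change, and moved the share of higher calls over all genes from 4745 of 9258 to 9526 of 10893. DESeq2 left 1 of the 10 genes higher, Axl being lost, and 5 lower, against 21.8% and 20.4% of all genes. Without each library in turn, the log2 fold change of Amotl2 lay between -0.74 and -0.70 and that of Frmd6 between -0.43 and -0.37. Ankrd1 lay between 0.42 and 0.71, Axl between 0.05 and 0.11 and Nf2 between -0.13 and -0.09. With the replicate number as a block 2 of the 10 genes were higher and 5 lower, against 29.8% and 28.5% of all genes, and no call of the 10 changed. The libraries share only a number and come from different mice; the correlation of their deviations was 0.03. With 2 libraries per group, whose spread may be technical, small changes such as that of Axl passed the test.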
